A study of Mus musculus with 18 samples.

Results

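Microglia were followed through 10 genes, *Aif1*, *Cx3cr1*, *Csf1r*, *P2ry12*, *C1qa*, *C1qb*, *C1qc*, *Tyrobp*, *Trem2* and *Ctss*, in RNA-seq of newborn mouse brain. The genes were chosen by name, and they and the further lists below were chosen with earlier results of these data known. Each of the 10 had a row in all 4 deposited tables. These name 23138 genes for hippocampi, 23398 for neurospheres and 54429 each for cortices and for *Rnf2* hippocampi. All samples were from postnatal day 0 and numbered 18. Kdm2bEmx1-delta-CxxC mice (cKO) lose the exon for the CxxC zinc finger of KDM2B, the domain that binds unmethylated CpG DNA, where *Emx1*-Cre is active, and their controls were Kdm2bfl/+ or Kdm2bfl/fl. Hippocampi (3 control and 3 cKO libraries), neurospheres grown from hippocampal neural progenitor cells (NPCs) in FGF2 and EGF (2 and 2) and cortices (2 and 2) were profiled. The paper states that the neurospheres were started from newborn hippocampi and cultured for 3 generations before sequencing. Rnf2Emx1-cKO hippocampi (2 libraries), which lose the E3 ligase RING1B of Polycomb repressive complex 1 under the same Cre, were set against Rnf2fl/+ or Rnf2fl/fl hippocampi (2 libraries). The labels do not say which controls carried 1 floxed allele or 2, whether controls carried the Cre, or whether libraries came from separate animals, so that p-values measure the spread between these libraries, which may be technical.

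Microglia are the resident macrophages of the brain and derive from the yolk sac, so they do not descend from the *Emx1* lineage in which the alleles were deleted. They survive through the receptor CSF1R, sense neurons through receptors such as CX3CR1 and P2RY12, and tag synapses and debris with complement C1q, of which they are the main source in brain. Macrophages at the borders of the brain, in meninges and around vessels, share many of these genes but are known for *Pf4*, *Mrc1* and *Lyve1*, which parenchymal microglia express little or not at all. These are bulk tissues, in which fewer cells of a type and less RNA per cell cannot be told apart.

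Levels are given in FPKM, a read density normalized to transcript length and to library depth. Fold changes were taken on log2(FPKM + 1), a scale that shrinks the changes of weakly expressed genes. Calls required an unadjusted limma p below 0.05 and a log2 fold change of more than 0.4 in either direction, the thresholds of the study, and the p-values printed are those adjusted over all genes tested in a comparison (Benjamini-Hochberg). Genes with a mean below 0.5 FPKM over a comparison were not tested. The deposited values cover each targeted gene as a whole and not the deleted exon alone, so they do not check the deletion. *Kdm2b* was at 29.4 ± 2.15 FPKM in control and 27.2 ± 0.992 in cKO hippocampi (SD, n = 3 each), and *Rnf2* was at 31.5 ± 1.02 in control and 28.1 ± 0.494 in *Rnf2* cKO hippocampi (SD, n = 2 each).

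The genes lie apart in the genome except for the C1q subunits. In GRCm38, *C1qb* (chr4:136880129-136886187), *C1qc* (chr4:136889804-136893065) and *C1qa* (chr4:136895917-136898803) follow each other on the minus strand, separated by 3616 and 2851 bases and spanning 18675 bases in all. *Ctss* (chr3:95526786-95556403) and *Trem2* (chr17:48346401-48354147) lie on the plus strand. Promoter windows of 300 bases (250 before and 50 after the start) were found in RefSeq (GRCm38.p6) for 7 of the 10 genes. They held 1 to 6 CpG dinucleotides, with a median of 5, while the median of all 32851 windows was 7 and the upper quartile 20. The sequence GAGGAA on either strand, the core that the macrophage factor PU.1 is known to bind, occurred in 5 of the 7 windows (*Aif1*, *C1qb*, *C1qc*, *Trem2* and *Ctss*) and in 28.3% of all windows. A match is a description of the letters and not a site of binding.

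The 250 bases before the start are shown, 5′ to 3′ on the gene's strand, for 3 genes called higher in cKO hippocampi whose windows overlap no annotated exon, with CG and GAGGAA or its reverse complement TTCCTC in capitals. They are taken from RefSeq, GRCm38.p6: *C1qb* at chr4:136886201-136886450 on the minus strand, *Ctss* at chr3:95526536-95526785 and *Trem2* at chr17:48346151-48346400 on the plus strand.
C1qb: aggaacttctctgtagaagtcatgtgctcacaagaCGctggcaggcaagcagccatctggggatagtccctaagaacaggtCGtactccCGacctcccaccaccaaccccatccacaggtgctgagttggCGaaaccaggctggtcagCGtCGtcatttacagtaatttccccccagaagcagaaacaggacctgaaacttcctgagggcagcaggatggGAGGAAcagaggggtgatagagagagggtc
Ctss: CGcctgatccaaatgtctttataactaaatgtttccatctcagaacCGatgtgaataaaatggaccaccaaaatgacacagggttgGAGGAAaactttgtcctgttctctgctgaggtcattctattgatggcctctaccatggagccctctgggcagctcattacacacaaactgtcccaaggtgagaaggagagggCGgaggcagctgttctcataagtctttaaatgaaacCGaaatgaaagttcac
Trem2: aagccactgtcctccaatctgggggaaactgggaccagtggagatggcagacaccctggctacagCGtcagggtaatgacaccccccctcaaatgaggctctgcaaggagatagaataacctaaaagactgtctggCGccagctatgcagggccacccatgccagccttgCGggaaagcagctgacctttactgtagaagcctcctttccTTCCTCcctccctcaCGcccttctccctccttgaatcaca
These stretches held 6, 4 and 4 CG and 1 GAGGAA, 1 GAGGAA and 1 TTCCTC in the order shown.

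In control hippocampi the complement genes and *Tyrobp* were the most abundant of the 10. *C1qc* stood at 19.2 ± 1.70 FPKM, *C1qb* at 16.4 ± 0.766, *Tyrobp* at 16.2 ± 4.63 and *C1qa* at 13.9 ± 1.55 (SD, n = 3 each). *Ctss* (8.22 ± 0.818), *Csf1r* (7.58 ± 0.444), *Trem2* (5.11 ± 1.07), *Cx3cr1* (3.94 ± 0.378), *P2ry12* (2.72 ± 0.0990) and *Aif1* (1.54 ± 0.610) followed. Neighbours in this order from *C1qb* to *C1qa*, and *Ctss* with *Csf1r*, were closer than their spread. The 10 genes together summed to 88.3 to 102 FPKM per control library. Control cortices held 21.8 to 26.1 FPKM, and the *Rnf2* control hippocampi 46.0 and 81.3 FPKM. These tables were normalized separately, so the levels stand side by side without a test.

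**Figure D1:**
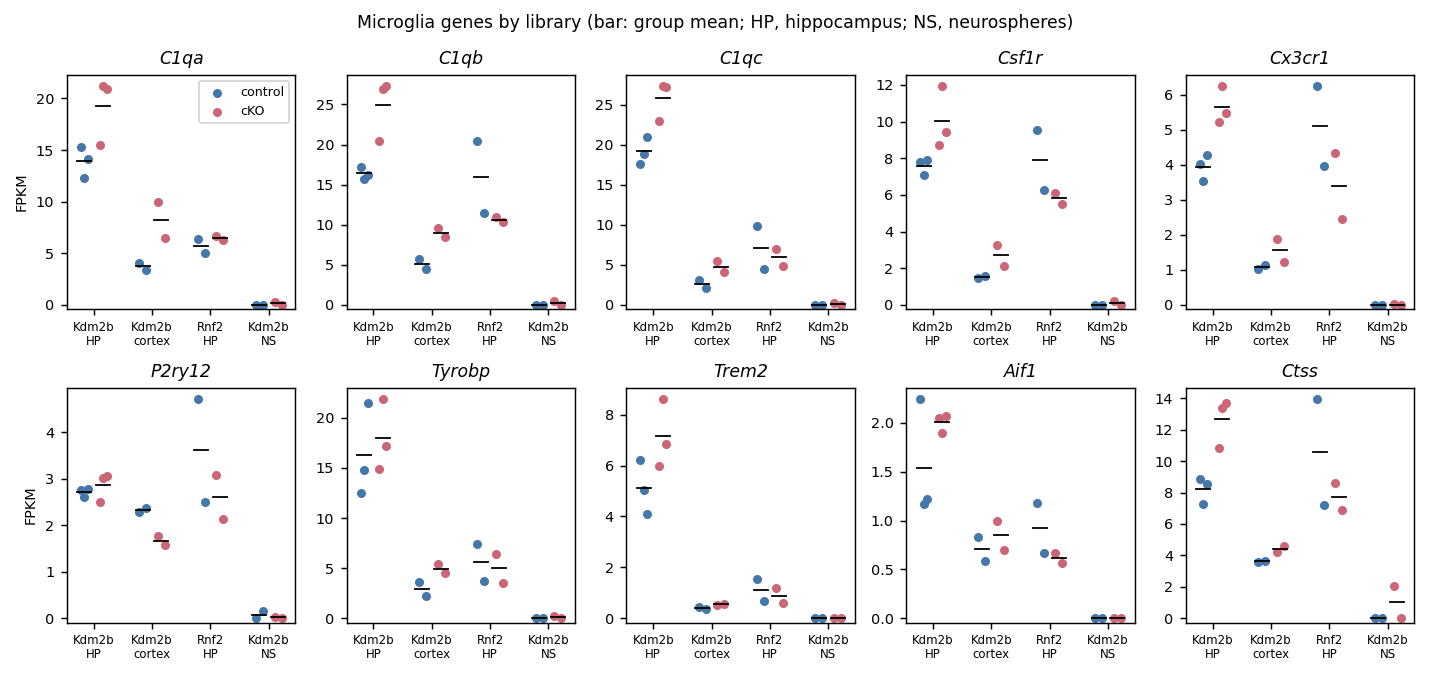
FPKM of each of the 10 microglia genes (vertical axis, linear) in every library of the 4 tables (horizontal axis; HP, hippocampus, NS, neurospheres), with control in blue, cKO in red and a bar at each group mean. Neurospheres lie at or near 0 for all 10 genes except Ctss in cKO library 1 (2.07 FPKM), and in Kdm2b hippocampi the cKO libraries lie above the controls for 6 of the 10.

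Most of these genes were higher in *Kdm2b* cKO hippocampi. Of the 10 genes, 6 were called higher (*C1qa*, *C1qb*, *C1qc*, *Cx3cr1*, *Trem2* and *Ctss*) and 0 lower, where 3.89% of the 13446 genes tested were called higher and 6.14% in either direction. All 10 had a positive log2 fold change, against 52.2% of all genes, and their median was 0.42 against 0.01 over all genes. In 4 of the 6 the adjusted p was also below 0.05, a call with the fold threshold that 4.41% of all genes passed. Summed over the 10, the cKO libraries held 109, 143 and 133 FPKM, and each lay above the 3 controls.

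The C1q subunits, which assemble into the recognition molecule of the classical complement pathway, rose together. *C1qb* measured 17.2, 15.7 and 16.3 FPKM in the controls and 20.5, 26.9 and 27.4 in the cKO libraries, a log2 fold change of 0.56 ± 0.10 (SE, limma adjusted p = 0.0134). *C1qc* measured 17.7, 18.9 and 21.0 against 22.9, 27.4 and 27.3 FPKM (0.41 ± 0.09, limma adjusted p = 0.0217). For both, every cKO library was above every control, with cKO library 1 nearest to them. *C1qa* measured 15.3, 12.2 and 14.1 against 15.5, 21.2 and 20.9 FPKM (0.43 ± 0.12, limma adjusted p = 0.0602), and its cKO library 1 barely exceeded the highest control. The 3 subunits took 50.6% to 53.1% of the summed level of the 10 genes in controls and 53.0% to 56.7% in cKO libraries, so their share of the 10 overlapped at its edge.

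Among the enzymes and receptors, *Ctss*, which encodes the lysosomal protease cathepsin S, changed most. It measured 8.84, 7.29 and 8.54 FPKM in controls and 10.9, 13.4 and 13.7 in cKO libraries (0.57 ± 0.10, limma adjusted p = 0.0135). *Cx3cr1*, the receptor for the neuronal chemokine CX3CL1, measured 4.02, 3.52 and 4.27 against 5.22, 6.24 and 5.47 FPKM (0.43 ± 0.10, limma adjusted p = 0.0325). Control and cKO libraries did not overlap for either gene. *Trem2*, a lipid-sensing receptor that signals through the adaptor encoded by *Tyrobp*, measured 6.22, 5.04 and 4.08 against 5.98, 8.63 and 6.86 FPKM, with cKO library 1 inside the control range (0.42 ± 0.15, limma adjusted p = 0.131).

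The other 4 genes were not called. *Csf1r*, the receptor for CSF1 and IL-34, measured 7.79, 7.07 and 7.88 against 8.75, 11.97 and 9.41 FPKM, so that the groups did not overlap, but its change was below the fold threshold (0.35 ± 0.11, limma adjusted p = 0.0805). *Aif1*, which encodes the actin-binding protein IBA1, measured 2.25, 1.17 and 1.22 against 2.05, 1.90 and 2.07 FPKM, with 1 control above every cKO library (0.27, 95% interval -0.09 to 0.62). *Tyrobp* varied most among the controls, at 12.5, 14.8 and 21.4 FPKM against 14.9, 21.9 and 17.2 (0.16, 95% interval -0.26 to 0.57). *P2ry12*, the purinergic receptor by which resting microglia sense nucleotides, measured 2.77, 2.61 and 2.78 against 2.501, 3.03 and 3.07 FPKM (0.05, 95% interval -0.18 to 0.28), so the groups overlapped. Control and cKO libraries overlapped for *Aif1*, *Tyrobp*, *P2ry12* and *Trem2* and not for the other 6, where 14.9% of all genes tested had every cKO library above every control.

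The genes did not keep the same proportion to each other. The ratio of *C1qb* to *P2ry12* within a library was 5.84 to 6.23 in controls and 8.18 to 8.91 in cKO hippocampi, a ratio chosen after the values were seen and given without a test. *C1qb* and *Ctss* stayed called under all 13 alternatives tried, each left-out library included. The count of 6 fell to 2 (*C1qb* and *Ctss*) without cKO replicate 2, which was the highest library for 6 of the 10 genes. cKO library 1 was also the sole library of the 6 with *Xist* RNA (154 FPKM, against at most 0.0732 in the others), and without it 7 of the 10 genes were called higher.

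**Figure D2:**
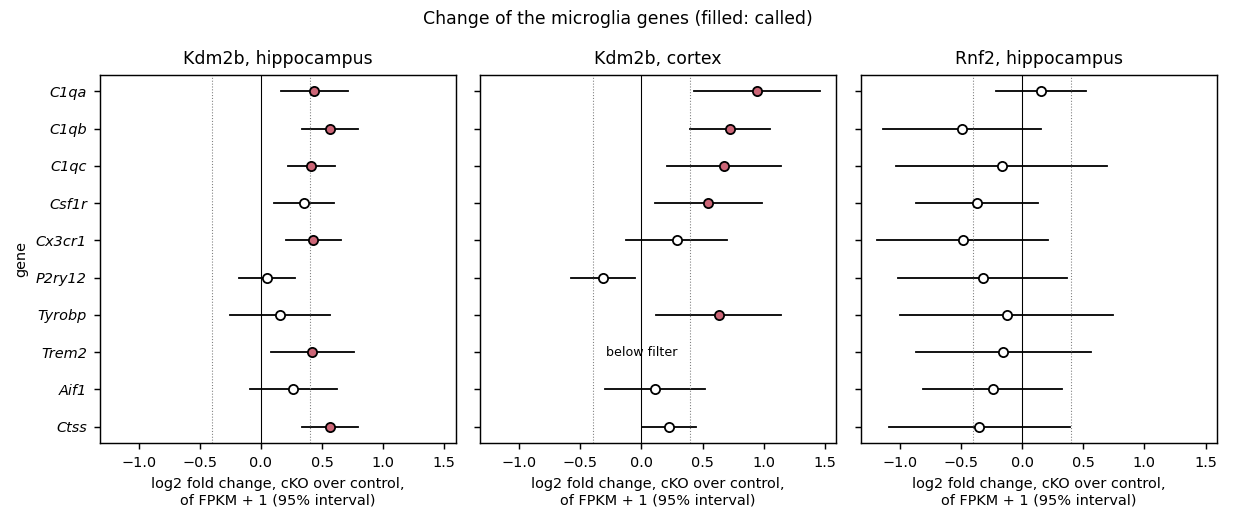
Log2 fold change of each microglia gene (cKO over control, on log2(FPKM + 1), horizontal axis) with its 95% interval in Kdm2b hippocampi, Kdm2b cortices and Rnf2 hippocampi; filled points were called and dotted lines mark the fold threshold of 0.4. The Kdm2b hippocampal points all lie above 0, P2ry12 alone lies below 0 in cortices, and all Rnf2 points except C1qa lie below 0.

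Other genes known from microglia were also higher in *Kdm2b* cKO hippocampi. Of 46 further microglia genes, 38 were tested, and 14 were called higher and 0 lower, with a median log2 fold change of 0.31. The largest changes were those of *Cyba*, a subunit of the phagocyte NADPH oxidase (0.89 ± 0.11, limma adjusted p = 0.0032), the perforin-like *Mpeg1* (0.63), the lysosomal membrane gene *Laptm5* (0.52) and the purinergic receptor *P2ry13* (0.51). *Ly86*, which encodes the RP105 partner MD-1, rose by 0.46. *Tmem119* (-0.03), *Siglech* (-0.09) and *Olfml3* (0.09), which like *P2ry12* mark resting microglia, were not called. Among the 14, *Lair1* was read from an entry shared with another gene and is uncertain, and *Cd84* (0.364 FPKM on average in controls and 0.881 in cKO libraries) passed the filter through the cKO libraries alone and so was favoured to differ. Without cKO replicate 2 the count was 9, still with 0 lower.

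Genes of activated or axon-tract microglia were called in both directions. Of 13 tested, *Cd63*, a tetraspanin of lysosomes and exosomes (0.54, limma adjusted p = 0.00311), and *Spp1*, which encodes osteopontin (0.80, limma adjusted p = 0.0779), were called higher. *Lpl*, lipoprotein lipase, was called lower (-0.70, limma adjusted p = 0.105), and none of these 3 genes is specific to microglia. Of 12 ligands and partners of the microglia genes tested, 1 was called higher, the complement gene *C4b* (0.49, limma adjusted p = 0.133), and 1 lower. *Cx3cl1*, the neuronal ligand of CX3CR1, was lower in cKO hippocampi, at 19.5, 19.7 and 15.9 FPKM in controls and 11.9, 12.7 and 15.8 in cKO libraries (-0.42 ± 0.11, limma adjusted p = 0.0504). The CSF1R ligands *Csf1* (0.09 ± 0.12) and *Il34* (-0.10 ± 0.10) were not called.

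Markers of the other macrophages and of tissues next to the hippocampus were measured in the same libraries. Of 7 border macrophage genes tested, limma called 0 higher or lower, with 1 (*Folr2*, 0.35) at an unadjusted p below 0.05, and their summed level was 16.8 to 27.6 FPKM in controls and 18.9 to 23.7 in cKO libraries. All 4 meningeal fibroblast genes had a log2 fold change below 0 (-0.20 to -0.19, none called), with sums of 26.8 to 38.3 and 20.1 to 34.8 FPKM. None of 6 endothelial genes was called. Of 3 choroid plexus genes tested, *Ttr* and *Clic6* were called higher. *Clic6* (0.255 FPKM on average in controls) passed the filter through the cKO libraries alone. *Ttr*, which encodes transthyretin, measured 3.96, 3.64 and 14.2 FPKM in controls and 56.0, 37.9 and 5.29 in cKO libraries. The microglia genes summed to 109, 143 and 133 FPKM in the same cKO libraries, and the part of these tissues in their change was not tested.

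The sums of neuronal, progenitor and oligodendrocyte markers also separated the groups in these hippocampi, though not every marker of each list did. The 5 neuronal markers summed to 1458 to 1529 FPKM in controls and 1110 to 1391 in cKO libraries, and 1 of them, *Slc17a7*, a vesicular glutamate transporter, was called lower (-0.57, limma adjusted p = 0.0286). The 5 progenitor markers summed to 207 to 241 against 281 to 323 FPKM, and *Nes* (0.52), *Vim* (0.50) and *Pax6* (0.83) were called higher. Within these lists 1 neuronal marker (*Gad1*, 0.05) and 1 progenitor marker (*Egfr*, -0.22) went the other way. The 5 oligodendrocyte lineage markers summed to 59.8 to 61.0 against 50.6 to 53.7 FPKM with 0 called by limma. Of them only *Olig1* (-0.35, unadjusted limma p below 0.05) separated the groups, at 32.8, 32.4 and 33.6 against 24.8, 24.2 and 28.3 FPKM. The median log2 fold change of the 5 was -0.01, with 2 markers above 0 and 3 below. The part of any of these cell types in the change of the microglia genes was not tested.

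In *Kdm2b* cKO cortices the C1q genes were again higher, but they rose in libraries that also differed in border tissue. Of 9 genes tested, 5 were called higher (*C1qa*, *C1qb*, *C1qc*, *Csf1r* and *Tyrobp*) and 0 lower, where 4.73% of the 15691 genes tested were called higher and 7.01% in either direction. None of the 5 had an adjusted limma p below 0.05 (0.126 at the lowest), which with the fold threshold 0.427% of all genes had. *Trem2* lay below the filter, at 0.440 and 0.371 FPKM in controls and 0.525 and 0.551 in cKO libraries. The log2 fold change was positive for 8 of the 9, against 48.7% of all genes, with a median of 0.54. Both cKO cortices lay above both controls for 7 of the 9, as they did for 22% of all genes.

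*C1qa* measured 4.06 and 3.39 FPKM in control and 9.99 and 6.48 in cKO cortices (0.94 ± 0.20, limma adjusted p = 0.173). *C1qb* measured 5.67 and 4.45 against 9.55 and 8.41 FPKM (0.72 ± 0.13, limma adjusted p = 0.126). *C1qc* measured 3.15 and 2.14 against 5.43 and 4.15 FPKM (0.67 ± 0.18, limma adjusted p = 0.245). Both cKO cortices lay above both controls for the 3 subunits, whose share of the summed level of the 10 genes was 49.3% and 45.8% in controls and 58.0% and 55.5% in cKO cortices.

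*Csf1r* measured 1.47 and 1.55 against 3.27 and 2.13 FPKM (0.54 ± 0.17, limma adjusted p = 0.301). *Tyrobp*, the adaptor also known as DAP12, measured 3.61 and 2.19 against 5.42 and 4.49 FPKM (0.63 ± 0.20, limma adjusted p = 0.302). *Ctss* (3.61 and 3.64 against 4.24 and 4.57 FPKM) and *Cx3cr1* (1.03 and 1.14 against 1.89 and 1.23 FPKM) were higher in both cKO libraries than in both controls but were not called. *Aif1* overlapped, at 0.829 and 0.583 against 0.997 and 0.698 FPKM.

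*P2ry12* was the one gene of the 9 with a negative value. It measured 2.28 and 2.37 FPKM in control and 1.76 and 1.58 in cKO cortices, from 128 and 128 reads against 88 and 75, and the groups did not overlap, which 22.8% of all genes tested showed in this direction (-0.32 ± 0.10, limma adjusted p = 0.309). The change missed the fold threshold and was called lower with a pseudocount of 0.1 and with limma-voom on recovered reads. The ratio of *C1qb* to *P2ry12* was 2.49 and 1.88 in controls and 5.42 and 5.34 in cKO cortices, again given without a test.

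Border macrophage genes rose in the same cKO cortices. All 5 that were tested were called higher, but 4 of them passed the filter through the cKO libraries alone. These 4, *Pf4* and *Mrc1* among them, thus had a higher cKO mean by selection, which favoured a call. *Pf4*, a chemokine gene of border macrophages, went from 0.252 and 0.0652 FPKM in controls to 10.9 and 7.19 (3.10 ± 0.21, limma adjusted p = 0.0211), while *Mrc1*, the mannose receptor, went from 0.128 and 0.133 to 4.20 and 2.03 FPKM. The summed level of the 9 border macrophage genes was 1.14 and 1.16 FPKM in controls and 26.7 and 15.1 in cKO cortices. The 4 meningeal fibroblast genes (*Dcn*, *Lum*, *Col1a1* and *Col1a2*) were all called higher and likewise passed the filter through the cKO libraries, with sums of 0.812 and 1.37 against 22.99 and 15.05 FPKM, and 3 of 6 endothelial and 3 of 5 haemoglobin and other red blood cell genes were called higher too. cKO library 1, with the higher border sum, was also the highest library for 7 of the 10 microglia genes. Their part in the change of the microglia genes was not tested.

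Of 21 other microglia genes tested in cortices, 6 were called higher and 0 lower. *Cyba* (1.21 ± 0.12, limma adjusted p = 0.0428), the Fc receptor genes *Fcer1g* (0.90) and *Fcgr3* (0.81) and *Adgre1*, which encodes F4/80 (0.63), led them, followed by *Unc93b1* (0.49) and *Cd53* (0.42). *Gpr34* (-0.05), *P2ry13* (0.08) and *Mpeg1* (-0.08), which were called higher in hippocampi, were not called in cortices. *Apoe*, an apolipoprotein ligand of TREM2 that border macrophages and astrocytes also make, was at 16.5 and 12.9 FPKM in controls and 40.9 and 30.5 in cKO cortices (1.22, limma adjusted p = 0.0979). *Xist* RNA was at 0.0177 FPKM in control library 1 and at 132 to 189 in the other cortical libraries. Depth was 18480515 to 21905224 reads on genes per library, of which the 10 microglia genes took 988 and 858 in controls and 1448 and 1064 in cKO cortices. The count of 5 fell to 2 (*C1qa* and *C1qb*) without control replicate 2 and also without cKO replicate 1.

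**Figure D3:**
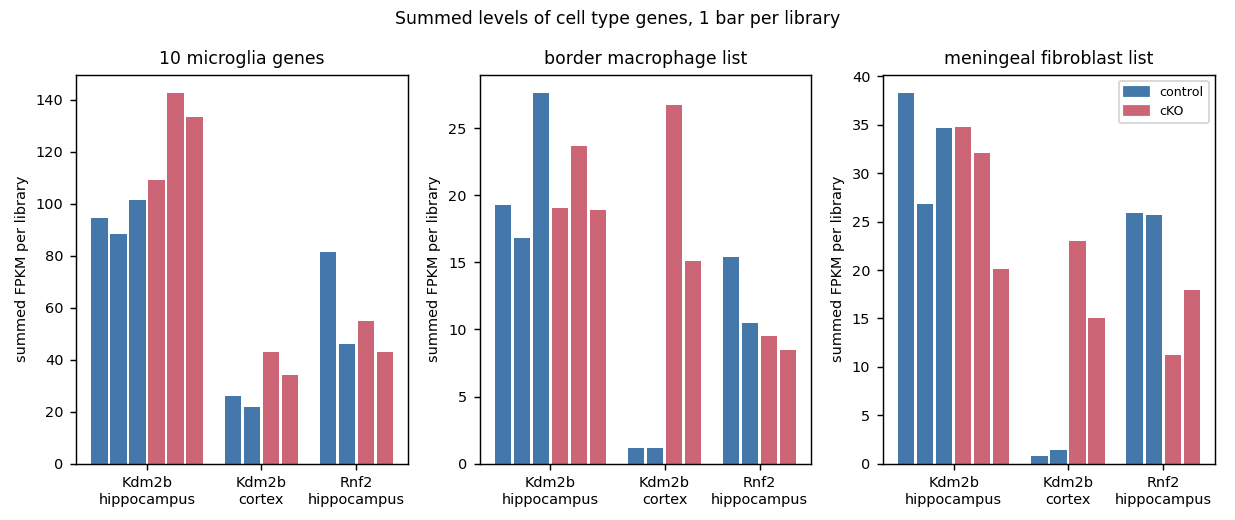
Summed FPKM (vertical axis, linear from 0) of the 10 microglia genes, the border macrophage list and the meningeal fibroblast list, with 1 bar per library, controls in blue and cKO in red. In cortices all 3 sums are higher in both cKO libraries, while in Kdm2b hippocampi only the microglia sum separates the groups (88.3 to 102 against 109 to 143 FPKM).

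The *Rnf2* cKO hippocampi showed no call. Of the 10 genes, 0 were called higher and 0 lower, where 4.71% of the 15764 genes tested were called, and 0 had an unadjusted limma p below 0.05. With adjusted p-values 0 genes of the whole table were called (0%). The log2 fold change was below 0 for 9 of the 10, with a median of -0.28, where 49.9% of all genes were above 0. With limma-voom on recovered reads the counts were also 0. The spread between the controls was wide. Control library 1 summed to 81.3 FPKM over the 10 genes and was the highest of the 4 libraries for 9 of them, whereas control library 2 summed to 46.0 and the cKO libraries to 55.0 and 43.0.

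*C1qb* measured 20.4 and 11.4 FPKM in control and 10.9 and 10.3 in *Rnf2* cKO hippocampi (-0.49 ± 0.26), and *Csf1r* measured 9.55 and 6.29 against 6.08 and 5.53 FPKM (-0.37 ± 0.20). In these genes alone of the 10 both cKO libraries were below both controls, which 18.7% of all genes tested showed. *Ctss* measured 13.98 and 7.19 against 8.60 and 6.87 FPKM (-0.35, 95% interval -1.09 to 0.39), and *Cx3cr1* 6.26 and 3.95 against 4.33 and 2.44 FPKM (-0.49, 95% interval -1.19 to 0.21). *C1qa*, the exception in direction, measured 6.43 and 5.07 against 6.69 and 6.24 FPKM (0.15, 95% interval -0.22 to 0.52). The interval of *C1qa* reached past the 0.43 of *Kdm2b* cKO hippocampi, whereas those of *C1qb* and *Csf1r* ended at 0.16 and 0.13, below the 0.56 and 0.35 measured there.

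The remaining genes overlapped between the groups. *C1qc* was at 9.83 and 4.46 against 7.02 and 4.86 FPKM, *Tyrobp* at 7.41 and 3.76 against 6.44 and 3.52, *P2ry12* at 4.73 and 2.499 against 3.09 and 2.14, *Trem2* at 1.53 and 0.689 against 1.17 and 0.587, and *Aif1* at 1.18 and 0.671 against 0.672 and 0.565. In each of them control library 1 was the highest. Without it the median over the 10 genes was 0.06 in place of -0.28. Of 32 other microglia genes tested, 0 were called by limma (2 lower by limma-voom, 6 lower without control replicate 2) and 27 had a negative value. All 4 meningeal fibroblast genes were below 0, and limma called 3 of them lower. Their sums were 25.9 and 25.7 FPKM in controls and 11.2 and 17.96 in cKO libraries. All 5 border macrophage genes tested were below 0 (median -0.28, 0 called), with sums of 15.4 and 10.5 against 9.52 and 8.47 FPKM. All 5 red blood cell genes tested were below 0 as well, with 1 called lower and sums of 271 and 217 against 201 and 197 FPKM. The part of these cell types in the values of the microglia genes was not tested. Between 14654894 and 16334420 reads per library lay on genes, 1391 to 2514 of them on the 10 genes.

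**Figure D4:**
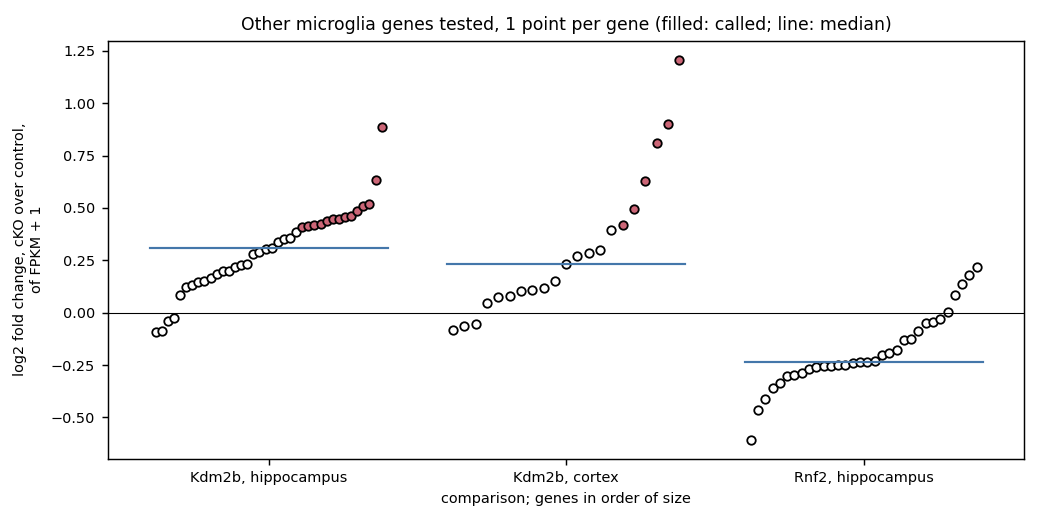
Log2 fold change (cKO over control, vertical axis) of the other microglia genes tested in each comparison, in order of size, with called genes filled and a line at the median. In Kdm2b hippocampi 14 of 38 are called and 34 lie above 0, in cortices 6 of 21 are called, and in Rnf2 hippocampi 0 of 32 are called and 27 lie below 0.

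The change in *Kdm2b* cKO hippocampi was compared with that in *Rnf2* cKO hippocampi by a test of the difference itself, over the 2 tables in a single limma fit. The difference was called for *C1qb* (1.05 ± 0.26, limma adjusted p = 0.0882), *Ctss* (0.91 ± 0.29, adjusted p = 0.157), *Cx3cr1* (0.91 ± 0.27, adjusted p = 0.135) and *Csf1r* (0.72 ± 0.22, adjusted p = 0.144), each higher with *Kdm2b*. That is 4 of 10 genes, where 4.76% of the 11266 genes tested were called in this direction and 8.85% in either, and none of the 4 passed an adjusted p of 0.05. The value was above 0 for all 10 genes, and was smallest for *Tyrobp* (0.28, 95% interval -0.58 to 1.14) and *C1qa* (0.28, -0.15 to 0.72). Of 28 other microglia genes, 15 were called in this direction and 0 in the other, led by *Cyba* (1.07) and *Gpr34* (1.05). Without *Rnf2* control replicate 2 the count of 4 was 8. The same *Rnf2* control library 1 enters all of these values, and the border macrophage, meningeal and red blood cell sums were lower in both *Rnf2* cKO libraries than in both controls.

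Between hippocampi and cortices of *Kdm2b* cKO mice no difference of the 9 genes was called, where 6.97% of the 10708 genes tested were. The largest were *C1qa*, with a change larger in cortices by 0.51 (-0.51, 95% interval -1.02 to 0.01), and *Tyrobp* (-0.48, 95% interval -1.14 to 0.19). *P2ry12* (0.37, limma adjusted p = 0.262) and *Ctss* (0.34, limma adjusted p = 0.334) differed in the other direction, with an unadjusted p below 0.05 but below the fold threshold. Among 18 other microglia genes, *Mpeg1* (0.71), *Gpr34* (0.50) and *P2ry13* (0.43) were called with a larger change in hippocampi and 0 with a larger one in cortices. These differences use the same hippocampal libraries as those against *Rnf2*. Border macrophage sums were 1.14 and 1.16 FPKM in control and 26.7 and 15.1 in cKO cortices, and meningeal fibroblast sums rose there too. In hippocampi the control and cKO libraries overlapped for both sums. The part of border tissue in these differences was not tested. The hippocampal and cortical tables were made with different gene models, so table and tissue cannot be told apart.

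**Figure D5:**
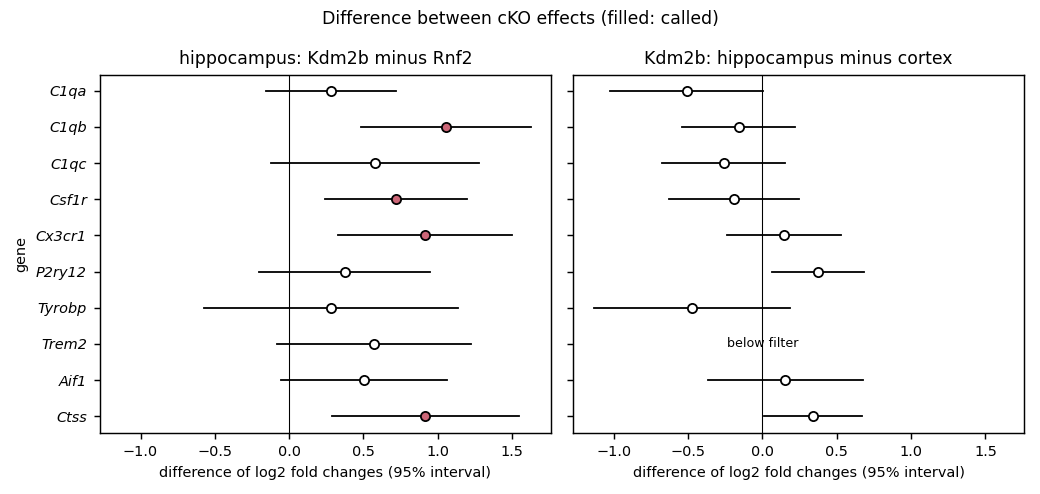
Difference between the cKO effects (log2 scale, horizontal axis) with its 95% interval for each microglia gene: Kdm2b minus Rnf2 in hippocampi, and hippocampus minus cortex for Kdm2b; filled points were called. All 10 values lie above 0 in the first panel, with C1qb, Csf1r, Cx3cr1 and Ctss called, and none is called in the second.

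Neurospheres, which are grown from NPCs and had been kept in culture for generations, held the microglia genes at or near 0. Their 5 progenitor markers (*Nes*, *Sox2*, *Vim*, *Pax6* and *Egfr*) summed to 1598 to 3876 FPKM per library and 5 neuronal markers to 62.4 to 70.3, while the same neuronal markers summed to at least 1110 FPKM in every tissue library. *Aif1* and *Trem2* were listed at 0 in all 4 libraries. Control library 1 and cKO library 2 were at 0 for all 10 genes, and control library 2 held *P2ry12* alone, at 0.157 FPKM. In cKO library 1, however, 8 of the 10 genes were above 0 and summed to 3.596 FPKM, of which *Ctss* made 2.07, *C1qb* 0.530 and *C1qa* 0.315. *Ctss* passed the filter through that library alone, and it was not called (0.81, 95% interval -0.46 to 2.08), where 24.6% of the 12227 genes tested were called.

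Neurosphere control library 1 stood apart in that *Mir6236* took 22.6% of the summed FPKM of its named genes. Rows without a gene name held 29.3% of all its FPKM. cKO library 1 stood apart in genes foreign to brain. cKO library 1 held 32 named genes above 1 FPKM that were at 0 in the other libraries, against 7, 3 and 0 in control 1, control 2 and cKO 2. A list of intestinal epithelial genes, made after the values were seen, summed to 35.1 FPKM in it and to 0.424, 0.744 and 0.895 in the others, with the mucin gene *Muc2* at 6.56 and the intestinal transcription factor gene *Cdx1* at 2.44 FPKM. Its *Xist* level was 0.361 FPKM, against 140 to 175 in the other neurosphere libraries. Whether the microglia genes of this library came with these transcripts was not tested. The difference between hippocampi and neurospheres could be fitted for *Ctss* alone and was not called (-0.24, 95% interval -1.29 to 0.80), where 26.8% of 11075 genes were.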

How the data were processed

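RNA-seq of 18 samples in 4 tables was used. The authors trimmed reads with cutadapt, aligned them to mm10 with STAR and estimated the deposited FPKM values with Cufflinks 2.2.1. The methods describe hippocampi and neurospheres; how the cortical and *Rnf2* FPKM were counted is not given in the sources used here. In those 2 tables FPKM times the deposited gene length is a whole multiple of 1 step per library (100% of values within 0.05), which gave reads. Reads per library could not be recovered for the other 2 tables. The paper's methods state a common sequencing depth for its RNA-seq libraries and not the reads of each. Rows without a gene name were dropped (2861 of 27180 in hippocampi, 2059 of 26293 in neurospheres, 140 of 54672 in cortices). The highest-mean entry was kept for each name, and genes in joined entries are uncertain.

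Genes of at least 0.5 FPKM on average were tested on log2(FPKM + 1) with limma 3.58.1 in R 4.3.3 (trend), each table by itself, and differences of effects over 2 tables. Groups came from the labels. Alternatives were a pseudocount of 0.1, no filter or 1 FPKM, 2 other scalings and adjusted p. The replicate number as a block, limma-voom on recovered reads, and each library left out were also tried. The code was tested on simulated data. The members and lists were chosen with earlier results of these data known, and the intestinal list and the ratio of *C1qb* to *P2ry12* after the values were seen. Genes were named as all 10 members, list genes called (at most 6 per list by size) and defining genes near 0, the targeted genes and 8 genes with the most similar pattern; 1 gene that this rule names is not reported here.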

Additional observations from a re-analysis of the deposited data

Results flagged for a closer look

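For 4 of the 10 genes the cKO effect differed between the Kdm2b and the Rnf2 hippocampi by the test of the difference (limma on both tables, unadjusted p below 0.05 and over 0.4 in size). *C1qb* differed by 1.0545, *Ctss* by 0.9148, *Cx3cr1* by 0.9145 and *Csf1r* by 0.721 on the log2 scale, each with the value for *Kdm2b* above 0 and that for *Rnf2* below it. The adjusted p lay between 0.0882 and 0.157. All 3 *Kdm2b* cKO libraries were above their controls for these 4 genes, whereas both *Rnf2* cKO libraries were below both controls for *C1qb* and *Csf1r* and overlapped them for *Ctss* and *Cx3cr1*. The 2 tables were made with different gene models, and table and genotype line cannot be told apart.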

How the results depend on the processing

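In *Kdm2b* hippocampi the count called higher was 4 to 6 and the median log2 fold change 0.41 to 0.44 with all libraries kept. Leaving out 1 library gave 2 to 7 and 0.33 to 0.48, 0 called lower, and *Tyrobp* at -0.0035 (without control replicate 1) to 0.36. In cortices 1 gene (*P2ry12*) was called lower with a pseudocount of 0.1 and with limma-voom, the median became 0.77 and 0.81, and 0 were called higher by adjusted p. Leaving out 1 library gave 2 to 5 higher, 0 lower, a median of 0.32 to 0.75 (0.35 without control replicate 2) and *Aif1* at -0.0032 to 0.23. In *Rnf2* hippocampi it gave 0 to 4 lower and a median of -0.65 to 0.059. There the positive ends came without control replicate 1, for *C1qc* (-0.66 to 0.33), *Ctss* (-0.78 to 0.085), *P2ry12* (-0.68 to 0.033), *Trem2* (-0.44 to 0.14) and *Tyrobp* (-0.54 to 0.29). *C1qc*, *Trem2* and *Tyrobp* were also above 0 without cKO replicate 2. In neurospheres *Ctss* was called higher (1) with the same FPKM total and without cKO replicate 2 (0 to 1 over left-out libraries).

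*Kdm2b* minus *Rnf2* had 0 calls by adjusted p and 4 to 8 with a library left out, with *Tyrobp* at -0.13 to 0.69. Hippocampus minus cortex had 1 higher and 1 lower with a pseudocount of 0.1, 1 higher with the same FPKM total, 1 lower with median-ratio scaling, and 0 to 2 higher and 0 to 3 lower with a library left out, with *Csf1r* at -0.41 to 0.033 and *Cx3cr1* at -0.043 to 0.33. Hippocampus minus neurospheres had 1 higher without a filter and 0 to 1 lower with a library left out. The causes were not tested.

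The replicate numbers were not taken to pair libraries (Pearson r between the deviations of same-numbered libraries of 0.05, -0.10 and -0.09 in hippocampi, -0.28 in neurospheres, -0.05 in cortices and 0.16 in *Rnf2* hippocampi, the one table above 0.1, where library 1 exceeded library 2 in both groups for all 10 genes). With the replicate block 2 genes were called lower in *Rnf2* hippocampi (*C1qb* and *Cx3cr1*) and 1 in hippocampus minus cortex, and no other count of members moved by over 1.5 times. Over all genes the block gave 989 calls in *Rnf2* hippocampi against 742 without it. The crossed replicate block in neurospheres, added after the data were seen, gave 3084 calls over all genes, against 3012 without a block and 2993 with it.

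A lone sample left in a group is assumed to vary like the others. Members had 19 to 314 reads in cortices and 14 to 698 in *Rnf2* hippocampi, so the low ones carry wide counting error.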

Other observations

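Across the 14 tissue libraries the genes most like the microglia genes were sought by Pearson correlation of log2(FPKM + 1), centred in each table, with the median of the 9 members that passed the filter in all 3 tissue tables, among 10532 genes. Of the members, *Csf1r* (0.95), *C1qc* (0.94), *C1qb* (0.94) and *Cx3cr1* (0.92) lay closest, while *Aif1* (0.67) and *P2ry12* (0.45) lay farthest. The 7 genes outside the members with the highest values were *Laptm5* (0.93), *Cnp* (0.92), *Cd53* (0.92), *Gusb* (0.92), *Mid1ip1* (0.91), *AI464131* (0.91) and *N4bp3* (0.90). *Laptm5* and *Cd53* are known from microglia, *Gusb* encodes a lysosomal glucuronidase, and *Cnp* a myelin enzyme of oligodendrocytes. The libraries share tables, depth and the groups compared, so these values are a description without a test.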
